A study of Rattus norvegicus with 150 samples.

Results

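The 5 genes of muscle atrophy and growth arrest described here were followed over metals and times in rat gastrocnemius: Trim63 (ENSRNOG00000016543), Fbxo32 (ENSRNOG00000006738), Foxo1 (ENSRNOG00000013397), Cdkn1a (ENSRNOG00000000521) and Gadd45a (ENSRNOG00000005615). They were chosen by identifier, as 5 of the 32545 genes in the count table, and all 5 passed the filter on low counts in every comparison. The muscle came from male Sprague-Dawley rats, bought at about 30 days of age and kept for at least 2 weeks, that had cylinders of 1 metal placed surgically in the gastrocnemius, 2 in each limb and 4 in each rat. The groups had nickel (Ni) for 1, 3 or 6 months, or cobalt (Co), the metal labelled P or depleted uranium (DU) for 1, 3, 6 or 12 months, or tantalum (Ta), the sham metal, for 1, 3, 6 or 12 months. The labels write P, and the series' design text lists lead (Pb) among the metals. The 150 libraries of total RNA fell into 19 groups, 17 of 8 libraries and 2 of 7 libraries (Co at 6 months and Ta at 1 month). Every group, Ta included, had the surgery and the embedded cylinders, and no group was without an implant. Months since surgery, the age of the rat and any cohort that went with the month cannot be told apart.

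Skeletal muscle loses mass when protein breakdown outpaces synthesis, and much of that breakdown runs through the ubiquitin-proteasome system. Trim63 (MuRF1) and Fbxo32 (atrogin-1) are the muscle's best known ubiquitin ligases of atrophy, and Foxo1 is a forkhead transcription factor that can switch both on when insulin and AKT signalling is low. Cdkn1a (p21) inhibits cyclin-dependent kinases and is a classic p53 target, and Gadd45a is a growth arrest and DNA damage response gene; in mouse muscle both are induced by denervation and other causes of atrophy.

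RefSeq promoter windows of assembly GRCr8, running from 250 bases before to 50 bases after the start of the gene, were at hand for 4 of the 5 genes, Fbxo32 being the one without. The 3 below are shown because these genes reached their highest levels in the same 2 libraries, DU at 12 months replicates 5 and 6. Capitals mark matches on either strand to the FOXO motif, spelled GTAAACA, to the core promoter box spelled TATAAA (the TATA box), or to a p53 half-site. Trim63 lies on chr5:151816986-151817285 (+ strand), Cdkn1a on chr20:7150682-7150981 (+ strand) and Gadd45a on chr4:97486750-97487049 (− strand).
Trim63: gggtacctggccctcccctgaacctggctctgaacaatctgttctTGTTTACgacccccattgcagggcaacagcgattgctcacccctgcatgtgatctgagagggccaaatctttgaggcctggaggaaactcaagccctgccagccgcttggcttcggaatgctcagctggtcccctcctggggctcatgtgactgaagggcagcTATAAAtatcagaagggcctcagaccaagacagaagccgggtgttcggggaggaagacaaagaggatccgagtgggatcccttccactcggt
Cdkn1a: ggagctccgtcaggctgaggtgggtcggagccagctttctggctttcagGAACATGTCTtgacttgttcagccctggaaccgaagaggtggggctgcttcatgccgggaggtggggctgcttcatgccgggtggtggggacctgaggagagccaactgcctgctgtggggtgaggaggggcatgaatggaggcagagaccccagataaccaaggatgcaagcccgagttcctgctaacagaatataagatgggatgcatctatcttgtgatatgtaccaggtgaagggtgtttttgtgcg
Gadd45a: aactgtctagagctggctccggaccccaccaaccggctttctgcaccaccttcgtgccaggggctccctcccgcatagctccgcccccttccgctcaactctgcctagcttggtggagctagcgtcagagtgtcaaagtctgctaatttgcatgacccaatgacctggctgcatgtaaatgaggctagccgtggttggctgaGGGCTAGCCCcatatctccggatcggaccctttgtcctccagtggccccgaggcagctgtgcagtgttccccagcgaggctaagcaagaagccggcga
In Trim63 the FOXO match (read on the opposite strand) lay 205 bases and the TATA box 42 bases before the start. The p53 half-site match lay 201 bases before the start of Cdkn1a and 48 bases before that of Gadd45a. Each start is that of the RefSeq window, and other starts of these genes were not looked at. Of 33469 promoter windows of this length, 3.78% held the FOXO motif, 14.2% the TATA box and 7.98% the p53 half-site. An E-box (CACGTG), held by 6.42% of the windows, and a glucocorticoid receptor element, held by 0.0149%, matched in none of the 4, and the Foxo1 window held no match to any of the 5 motifs. The p53 half-site was added after the sequences had been seen, as was an octamer motif whose matches are not given here. The matches overlap no other match and describe letters, not binding.

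Libraries held between 12674115 and 21921859 counts (median 15778710). Levels are given as CPM, the share of a library's counts that fell on a gene, scaled by the library's TMM factor over all libraries. Some libraries stood apart from their groups. The median correlation of log2 CPM with the other libraries of the group was 0.415 for DU at 3 months replicate 2, 0.79 for DU at 12 months replicate 6, 0.905 for DU at 12 months replicate 5 and 0.842 for Co at 6 months replicate 1. It was also low in Co at 3 months (0.799 for replicate 2, 0.834 for replicate 8, 0.849 for replicate 6 and 0.863 for replicate 5) and in Co at 1 month (0.821 for replicate 3 and 0.875 for replicate 1). All Co libraries at 3 months were at 0.899 or below, and Ni at 1 month had 0.904 for replicate 3 and 0.9 for replicate 8. The library labelled DU at 3 months replicate 2 goes against its muscle label, with 0.412 CPM of Trim63, a gene of striated muscle. Fits without the DU libraries and Co at 6 months replicate 1 are given where they change a call, and the Co libraries at 1 and 3 months were left out 1 at a time in Co over DU at 1 month and Co over P at 3 months. No label says which rat a library came from, and the p-values therefore reflect variation among libraries, which may be technical. The markers of muscle and of other cell types could not be looked up, because no identifier besides the 5 was paired with a name, so the tissue label was not checked. In RNA from whole muscle, fewer cells of a type and less RNA per cell cannot be told apart.

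Trim63 had a median of 306.9 CPM over all libraries and Fbxo32 131 CPM, while Cdkn1a stood at 25.9 CPM, Gadd45a at 13.5 CPM and Foxo1 at 6.47 CPM. These levels are not per transcript length, so the order between genes was not read. Each gene was counted in every library. The lowest count was 5 for Trim63, 18 for Fbxo32, 3 for Foxo1, 65 for Cdkn1a and 78 for Gadd45a, which leaves a wide counting error at the low end of Foxo1. In Ta muscle Trim63 varied least of the 5 genes at each month: its coefficient of variation between libraries was 11.2%, 16.7%, 11.8% and 7.05% at 1, 3, 6 and 12 months. That of Fbxo32 in the same Ta libraries was 70.8%, 85.1%, 36.1% and 30.5%.

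**Figure D1:**
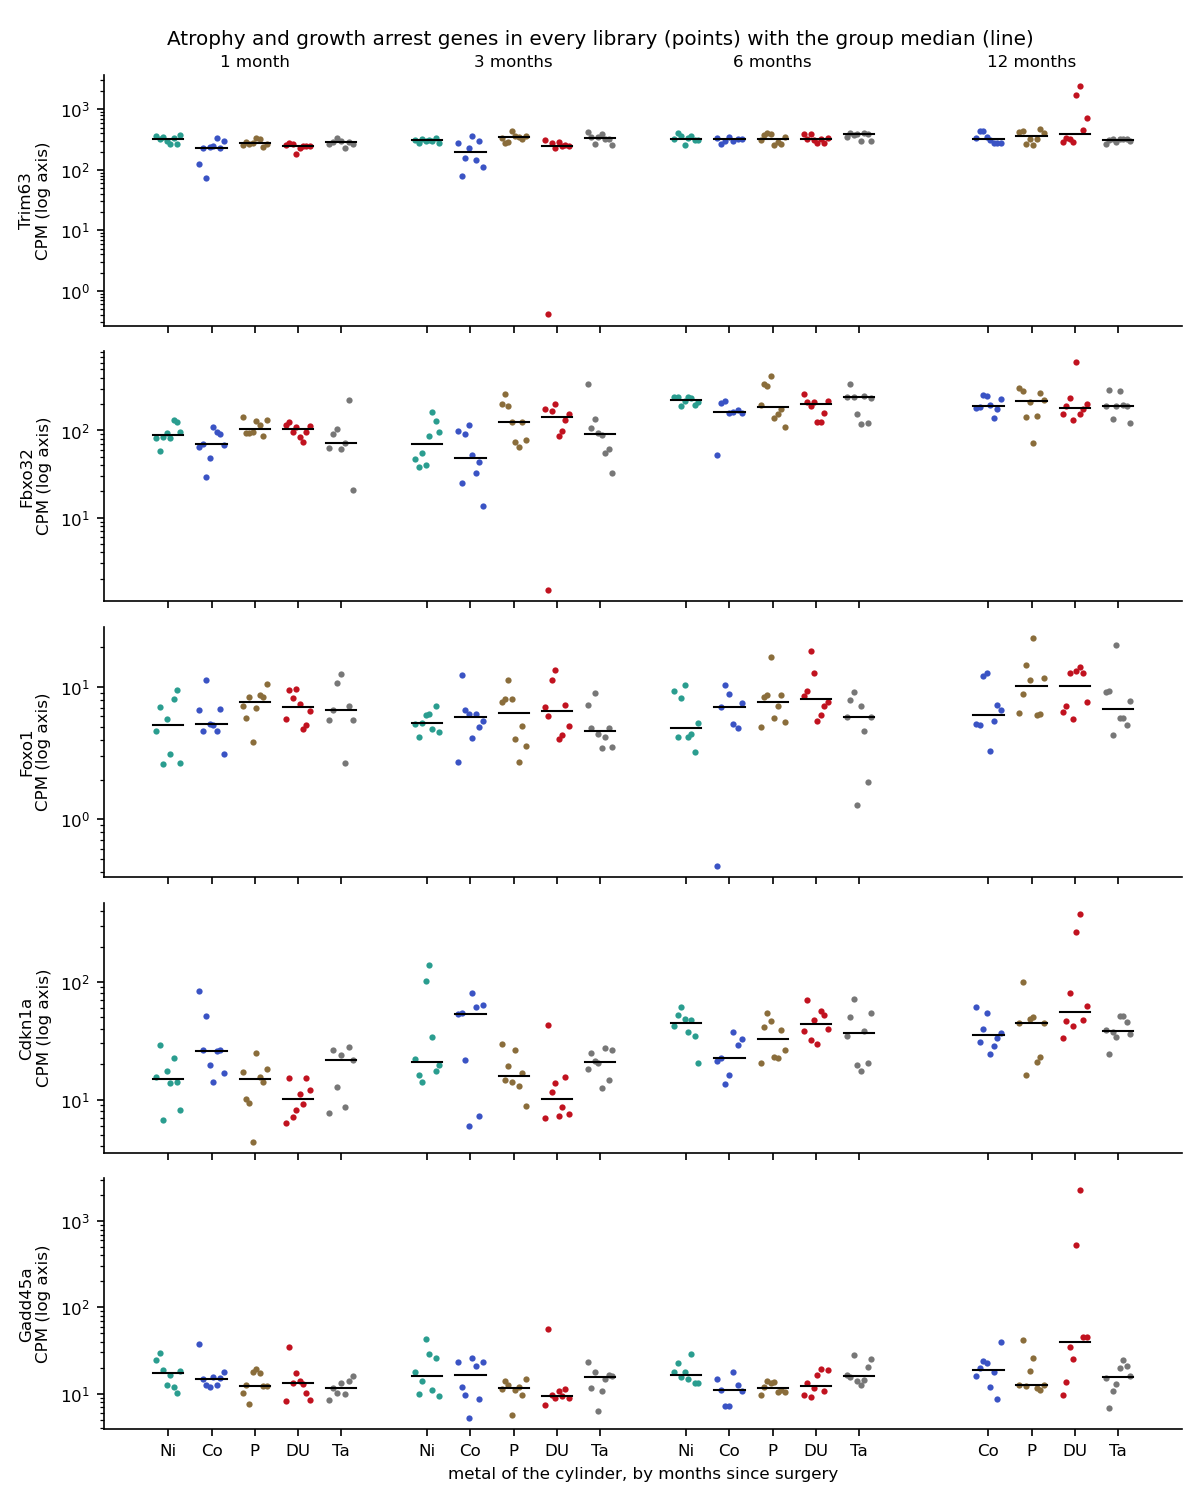
CPM of each gene on a log axis (1 panel per gene) in every library, by metal and months since surgery; points are libraries and lines are group medians. Fbxo32 medians are higher than at 1 month in every metal at 6 months, and at 12 months in every metal sampled then (Ni was not). Replicates 5 and 6 of DU at 12 months reach 1709 and 2392 CPM of Trim63 and 523 and 2304 CPM of Gadd45a.

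The clearest pattern was one of time. Over the 14 comparisons of a later month with 1 month within a metal, 17 of 70 tests passed (edgeR's quasi-likelihood test, Benjamini-Hochberg adjusted p under 0.05 over all genes tested), and all 17 were higher at the later month. Over all genes, 6.26% of tests in these comparisons passed in either direction. The 17 were 9 of Fbxo32, 6 of Cdkn1a, 1 of Trim63 and 1 of Gadd45a. Foxo1 gave 0 of 14, with 2 at an unadjusted p under 0.05 by edgeR, and none of the 17 fell at 3 months. Among all genes tested, such an unadjusted p was met by 788 of 12304 (Ta at 3 months) to 4258 of 12378 (Co at 12 months). The comparisons of 1 metal share its 1 month libraries, so they are not independent of each other.

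Fbxo32, the F-box subunit of an SCF ubiquitin ligase, was higher at 6 months in all 5 metals and at 12 months in all 4 metals sampled then, by 0.89 to 1.48 on the log2 scale. In Ni muscle the lowest, median and highest libraries at 6 months had 190.1, 224.9 and 242 CPM, against 57.7, 88.8 and 130.3 CPM at 1 month. The Ni groups did not overlap, and the log2 fold change was 1.20 ± 0.14 (SE, adjusted p = 0.00105), where 1.63% of all genes tested were called higher. In Co muscle at 12 months they had 138, 192 and 258 CPM, against 29.7, 69.1 and 110.2 CPM at 1 month. These Co groups did not overlap either (log2 fold change 1.48 ± 0.22, adjusted p = 0.00214; 7.83% of genes called higher).

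Ta muscle showed the same direction with far wider spread. Fbxo32 in Ta had a median of 71.6, 90.4, 239 and 191 CPM at 1, 3, 6 and 12 months, with lowest libraries of 21.0, 32.9, 118 and 122 CPM and highest libraries of 224, 341, 345 and 289 CPM. At 6 months 5 of 8 Ta libraries, and at 12 months 2 of 8, lay above every 1 month library, while all 8 lay above the 1 month median at both times. The log2 fold change was 1.22 ± 0.37 at 6 months (adjusted p = 0.0450; 4.11% of genes called higher) and 1.14 ± 0.36 at 12 months (adjusted p = 0.0370; 7.73% called higher). The Ta calls were near the threshold. Leaving out 1 library at a time kept 4 of 15 calls at 6 months, with adjusted p from 0.00952 to 0.0874, and 5 of 15 at 12 months, with adjusted p from 0.00310 to 0.0745. The loss of any of Ta 1 month replicates 1, 2, 3, 4 and 5 ended both calls; so did replicate 8 at 1 month or 1, 2, 3, 6 and 8 at 6 months for the first, and 1, 2, 4, 5 and 6 at 12 months for the second. Without a filter on low counts neither Ta call passed (adjusted p = 0.0624 at 6 months and 0.0858 at 12 months), and with a replicate block the 6 month call did not (0.0760).

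The other Fbxo32 calls were of like size. In Co at 6 months it was higher by 1.15 ± 0.28 (adjusted p = 0.0257; 4.34% called higher), with 6 of 7 libraries above every 1 month library and replicate 1, which stands apart, at 52.7 CPM. Without that library the log2 fold change was 1.30 (adjusted p = 0.0176). In P muscle it was higher by 1.08 ± 0.25 at 6 months (adjusted p = 0.00968; 4.57% called higher) and by 0.92 ± 0.23 at 12 months (adjusted p = 0.0159; 5.42% called higher). Both P calls were lost with all 150 libraries in 1 model (adjusted p = 0.159 at 6 months and 0.173 at 12 months) and with a replicate block (0.0638 and 0.0685). In DU muscle it was higher by 0.89 ± 0.16 at 6 months (adjusted p = 0.0115; 0.518% called higher), with 6 of 8 libraries above every 1 month library, but it was lost with all libraries in 1 model (adjusted p = 0.462). At 12 months the DU value was 1.17 ± 0.27 (adjusted p = 0.0354; 0.617% called higher), with all 8 libraries above every 1 month library. A replicate block ended the call in DU at 12 months (adjusted p = 0.160) and in Co at 6 months (0.108). Leaving out 1 library at a time, 6 of 16 DU calls held at 12 months, with adjusted p from 0.0170 to 0.0813; the loss of any 1 month library, or of 12 month replicate 3 or 8, ended the call. Without replicates 5 and 6 at 12 months together, the Fbxo32 value was 0.84 (adjusted p = 0.00333).

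**Figure D2:**
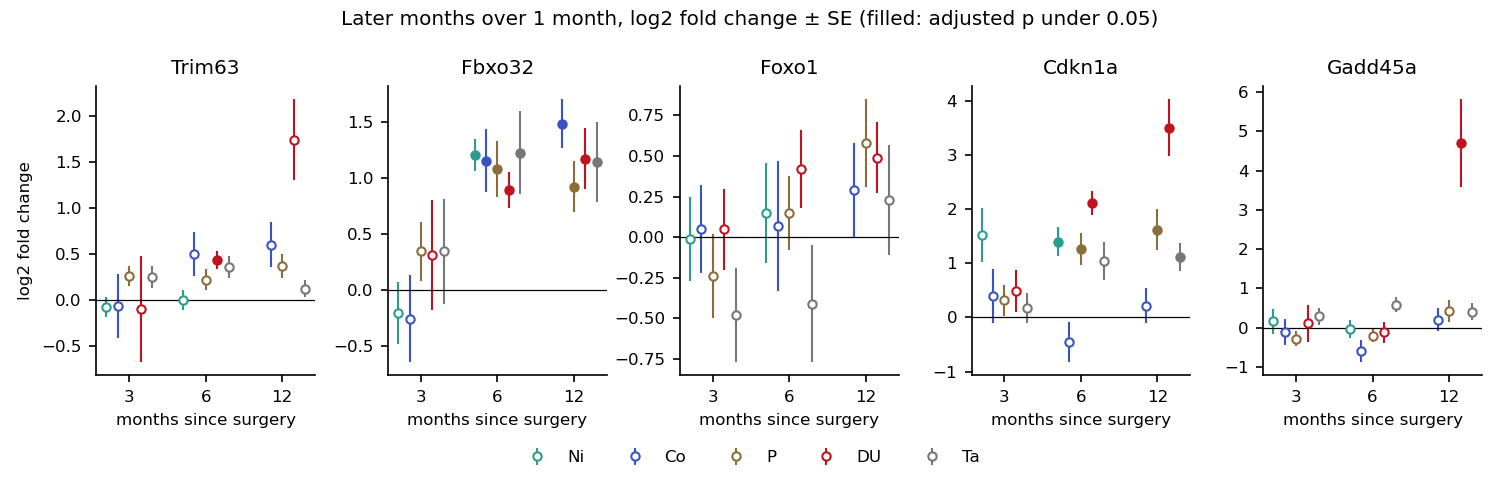
Log2 fold change of each later month over 1 month within a metal (points) with its SE (bars), 1 panel per gene, months since surgery on the x axis and metals by colour; filled points passed an adjusted p of 0.05. All 9 Fbxo32 points at 6 and 12 months are filled, between 0.89 and 1.48, and no point at 3 months is.

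Cdkn1a, the p21 cell cycle inhibitor, rose with time in DU, P, Ni and Ta muscle. In DU it had 30.0, 43.7 and 69.8 CPM in the lowest, median and highest libraries at 6 months, against 6.37, 10.1 and 15.4 CPM at 1 month. The DU groups were fully separate, with a log2 fold change of 2.12 ± 0.22 (adjusted p = 0.000154). At 1 month all 8 DU libraries lay below the Ta median of 21.9 CPM, though DU over Ta did not pass (-0.81 ± 0.29, adjusted p = 0.568). At 12 months DU libraries ran from 33.4 to 379 CPM around a median of 55.2 CPM, again all above the 1 month libraries (log2 fold change 3.51 ± 0.53, adjusted p = 0.00579). Of all genes tested in DU, 0.518% were called higher at 6 months and 0.617% at 12 months. Without replicates 5 and 6 the 12 month value was 2.31 (adjusted p = 0.000118), and all 16 fits that left out 1 library kept the call; with a replicate block it was lost (2.93, adjusted p = 0.0695).

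In Ta muscle Cdkn1a had a median of 21.9, 20.9, 36.6 and 38.6 CPM at 1, 3, 6 and 12 months. The 12 month libraries ran from 24.4 to 51.3 CPM, against 7.71 to 27.7 CPM at 1 month, and 7 of 8 lay above every 1 month library. The log2 fold change was 1.12 ± 0.26 (adjusted p = 0.00963) and held in 15 of 15 fits without 1 library, but not with all 150 libraries in 1 model (adjusted p = 0.0877). At 6 months it was 1.04 ± 0.35 and missed the threshold (adjusted p = 0.0662). In Ni at 6 months the value was 1.40 ± 0.27 (adjusted p = 0.0119). In P it was 1.27 ± 0.29 at 6 months (adjusted p = 0.0113) and 1.62 ± 0.38 at 12 months (adjusted p = 0.0128). Of all genes tested, 7.73% were called higher in Ta at 12 months and 1.63% in Ni at 6 months. In P, 4.57% were called higher at 6 months and 5.42% at 12 months. The P call at 6 months was lost with all libraries in 1 model (adjusted p = 0.135) and with a replicate block (0.0808).

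Co muscle had no Cdkn1a call over time. Its median was 26.1, 53.9, 22.7 and 35.2 CPM at 1, 3, 6 and 12 months. The log2 fold change was -0.46 ± 0.37 at 6 months (adjusted p = 0.392) and 0.22 ± 0.33 at 12 months (adjusted p = 0.669). The change from 1 to 6 months in Co less that in Ta was -1.53 ± 0.53 for Cdkn1a, with an adjusted p of 0.262, so the difference between the metals did not pass. In Ni muscle at 3 months 2 libraries, replicates 4 and 5, had 102 and 139 CPM of Cdkn1a, while the other 6 had 34.0 CPM or less. The group's log2 fold change over 1 month, 1.52 ± 0.50, did not pass (adjusted p = 0.156).

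Trim63, the sarcomere-associated ligase MuRF1, passed in 1 of 14 comparisons over time. That was DU at 6 months, where 7 of 8 libraries lay above every 1 month library: the lowest, median and highest were 281, 325 and 388 CPM at 6 months, against 186, 249 and 282 CPM at 1 month. The log2 fold change was 0.43 ± 0.10 (adjusted p = 0.0488), and it passed in 3 of 6 other ways of fitting, being lost without a filter (adjusted p = 0.0867), with a replicate block (0.131) and with all libraries in 1 model (0.945). In that comparison 0.518% of all genes tested were called higher. The model of all libraries also held DU at 3 months replicate 2, at 0.412 CPM of Trim63, whose part in that loss was not tested. In Ta the log2 fold change of Trim63 was 0.36 ± 0.12 at 6 months (adjusted p = 0.0647) and 0.12 ± 0.09 at 12 months (adjusted p = 0.385). In Ni at 6 months it was 0.00 ± 0.11. Values at least as large as the DU call did not pass elsewhere: 0.50 ± 0.24 in Co at 6 months (adjusted p = 0.166) and 0.60 ± 0.24 in Co at 12 months (adjusted p = 0.0891), where all 8 libraries lay above the 1 month median. P at 12 months had 0.37 ± 0.13 (adjusted p = 0.0657). DU at 12 months had 1.74 ± 0.44 (adjusted p = 0.0594), and passed without replicates 5 and 6 (0.72, adjusted p = 0.0380).

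Foxo1 stayed between group medians of 4.66 and 10.2 CPM over all 19 groups. Its log2 fold changes over 1 month ran from -0.48 to 0.58, with adjusted p-values from 0.173 to 0.987. The highest of them, 0.58 ± 0.27, was that of P at 12 months, where the lowest, median and highest libraries had 6.15, 10.1 and 23.4 CPM, against 3.83, 7.75 and 10.5 CPM at 1 month. Gadd45a likewise kept group medians of 9.44 to 18.8 CPM in every group but DU at 12 months, where the median was 39.8 CPM. In Ta at 6 months Gadd45a had a log2 fold change over 1 month of 0.59 ± 0.19 (adjusted p = 0.0578).

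Set against the Ta sham at the same month, no gene passed in any metal: 0 of 75 tests over 15 comparisons by edgeR, with 14 at an unadjusted p under 0.05 and adjusted p-values from 0.130 upwards. Among all genes tested, such an unadjusted p was met by 328 of 12034 (Ni at 6 months) to 3223 of 12158 (DU at 3 months). Over all genes 0.619% of the tests in these comparisons passed. DESeq2 called 3, limma voom with sample weights 5, and edgeR with all 150 libraries in 1 model 5. Of the 75 log2 fold changes 43 were above 0 and 32 below, with a median of 0.06. Fbxo32 had 0 of 15 tests at an unadjusted p under 0.05 by edgeR (0 of 15 past the threshold), although it was the gene with the most calls over time. Without DU at 3 months replicate 2 and Co at 6 months replicate 1, edgeR called 1, Cdkn1a in DU against Ta at 3 months (log2 fold change -1.04, adjusted p = 0.0378). The shares of all genes called by these other fits are not given here, so their counts were not read as a result about the 5 genes.

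**Figure D3:**
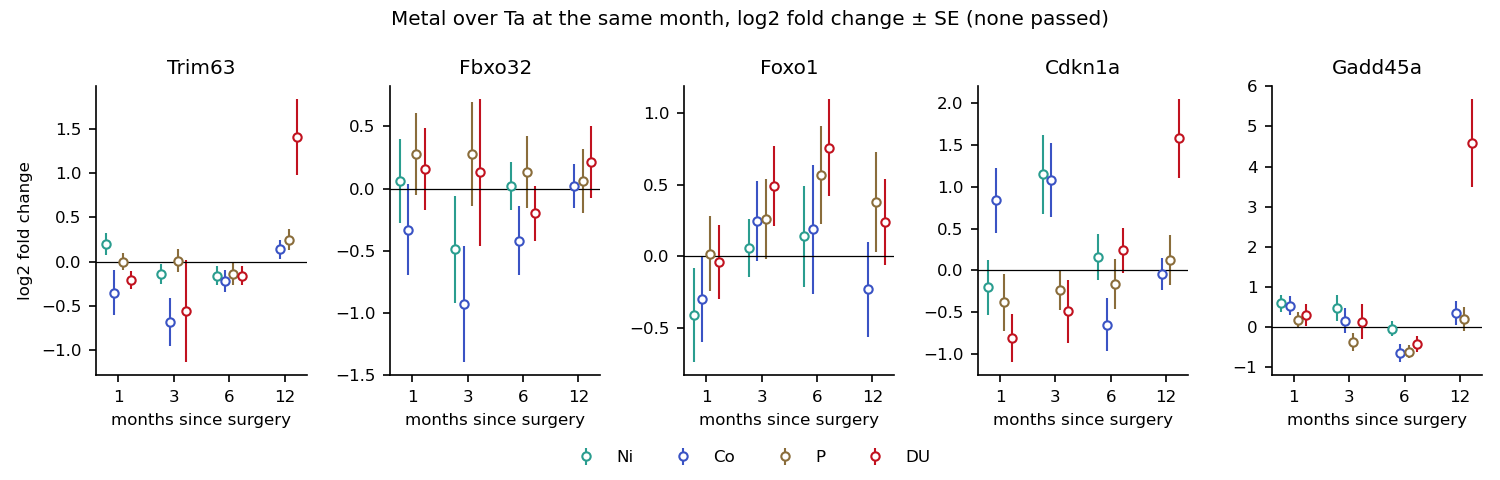
Log2 fold change of each metal over Ta at the same month (points) with its SE (bars), 1 panel per gene, months since surgery on the x axis and metals by colour. No point passed an adjusted p of 0.05; the points farthest from 0 are DU at 12 months, at 1.41 for Trim63, 1.58 for Cdkn1a and 4.58 for Gadd45a.

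The widest differences from Ta were those of DU at 12 months, and they came from few libraries. Trim63 had 286, 334, 321, 292, 1709, 2392, 454 and 712 CPM in DU replicates 1 to 8, against a lowest, median and highest of 266, 315 and 326 CPM in Ta at 12 months. Cdkn1a had 33.4, 46.5, 80.1, 41.9, 266, 379, 47.2 and 63.1 CPM in DU, against 24.4, 38.6 and 51.3 CPM in Ta. Gadd45a had 9.56, 13.5, 34.7, 25.4, 523, 2304, 45.2 and 44.8 CPM in DU, against 6.81, 15.6 and 24.6 CPM in Ta. Replicates 5 and 6 were the highest for all 3 genes, and 6 of 8 DU libraries lay above every Ta library for Gadd45a. Fbxo32 behaved otherwise: it was 605 CPM in replicate 5 but 153 CPM in replicate 6, and 132 to 233 CPM in the other 6. Foxo1 had 13.2 CPM in replicate 5 and 14.3 CPM in replicate 6, within the Ta range of 4.34 to 20.9 CPM.

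The log2 fold changes of DU over Ta at 12 months were 1.41 ± 0.43 for Trim63 and 1.58 ± 0.47 for Cdkn1a (both adjusted p = 0.200), and 4.58 ± 1.10 for Gadd45a (adjusted p = 0.157). Without replicates 5 and 6 they were 0.40 for Trim63, 0.40 for Cdkn1a and 0.88 for Gadd45a, with adjusted p-values of 0.262, 0.316 and 0.241. Leaving out replicate 6 or any other single library called none of the 3. DESeq2 passed all 3, at 1.41, 1.58 and 2.48 (adjusted p = 0.0442, 0.0381 and 0.0347), after replacing 1 outlying count of Gadd45a. For each gene 2 of 6 other ways of fitting passed, DESeq2 and either voom or the model of all libraries. The lowest adjusted p over these fits was 0.000386 for Trim63, 0.00645 for Cdkn1a and 4.1e-11 for Gadd45a. Over 1 month in DU, Gadd45a passed at 4.70 ± 1.12 (adjusted p = 0.0457), but without replicates 5 and 6 it was 0.97 (adjusted p = 0.188), and 6 of 16 fits without 1 library kept the call. The loss of replicate 5 or 6 at 12 months, or of any 1 month library, ended it. A replicate block (1.97, adjusted p = 0.417), voom (0.88, adjusted p = 0.246) and the fit without a filter (4.70, adjusted p = 0.108) lost it too. In DU at 12 months over 1 month 0.617% of all genes tested were called higher. In replicates 5 and 6 the 10 most abundant genes took 20.2% and 20.5% of the counts, against 26.1% to 33.0% in the other 6 DU libraries and 26.5% to 33.1% in Ta at 12 months, and TMM factors were 1.48 and 1.56. The part of this shift in the result was not tested.

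**Figure D4:**
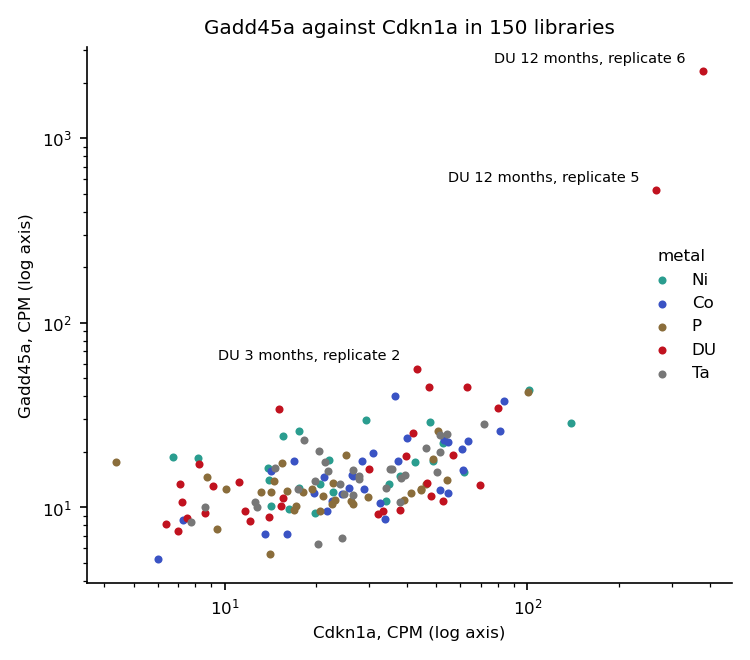
CPM of Gadd45a against CPM of Cdkn1a, both on log axes, in each of the 150 libraries, coloured by metal. Replicates 5 and 6 of DU at 12 months stand alone at the upper right, at 523 and 2304 CPM of Gadd45a and 266 and 379 CPM of Cdkn1a.

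Within groups, Cdkn1a and Gadd45a varied together. After each group's mean was subtracted, their log2 CPM had a Pearson r of 0.63 and a Spearman rho of 0.53 over 150 libraries, and r of 0.53 over 147 libraries without DU at 3 months replicate 2 and DU at 12 months replicates 5 and 6. Gadd45a ranked 2 among 12254 genes by its r with Cdkn1a, and 9 without those libraries. Trim63 and Fbxo32 had an r of 0.69 and a rho of 0.43, but the r was 0.36 without DU at 3 months replicate 2. Foxo1 had an r of 0.25 with Fbxo32 and of -0.03 with Trim63. These values describe libraries that share a table and a scaling. The genes most like each of the 5 had a first r of 0.66 (Cdkn1a) to 0.92 (Trim63; 0.73 without DU at 3 months replicate 2), but their identifiers were not paired with names.

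The library labelled DU at 3 months replicate 2 nearly lacked both ligases, which goes against its gastrocnemius label. It had 0.412 CPM of Trim63 and 1.48 CPM of Fbxo32, where the other 7 libraries of its group had 227 to 308 CPM of Trim63 and, for Fbxo32, a lowest value of 86.2 CPM and a median of 153 CPM. The same library had 43.2 CPM of Cdkn1a and 56.5 CPM of Gadd45a, against 7.03 to 15.5 CPM and 7.44 to 11.3 CPM in the other 7. With it, Cdkn1a in DU over Ta at 3 months was -0.49 ± 0.38 (adjusted p = 0.420).

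Between the 4 test metals, 4 of 105 tests over 21 comparisons passed by edgeR, all with Co, where 3.58% of tests over all genes did. Without DU at 3 months replicate 2 and Co at 6 months replicate 1 there were 9, the added calls being Fbxo32, Cdkn1a and Gadd45a in Co over DU and Cdkn1a and Gadd45a in DU over Ni, all at 3 months. The share of all genes called in that fit is not given here, so the 9 were not read as a result about these genes. With all libraries kept, the 5 genes were called between metals about as often as genes in general. At 3 months 3 of the 5 passed in Co over P, where 3593 of 12344 genes tested did. Trim63 had 79.9, 195 and 364 CPM in the lowest, median and highest Co libraries, against 282, 344 and 432 CPM in P. It lay below every P library in 6 of 8 Co libraries, with a log2 fold change of -0.69 ± 0.25 (adjusted p = 0.0479). Fbxo32 had 13.7, 48.2 and 116 CPM in Co, against 65.3, 124 and 264 CPM in P; all 8 Co libraries lay below the P median (log2 fold change -1.22 ± 0.41, adjusted p = 0.0360). Of all genes tested in this comparison 9.55% were called lower.

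Cdkn1a went the other way. It had 6.00, 53.9 and 81.3 CPM in the lowest, median and highest Co libraries at 3 months, against 8.75, 15.8 and 29.8 CPM in P. The Co libraries were spread to both sides, 5 above every P library and 2 below every one. The log2 fold change was 1.34 ± 0.45 (adjusted p = 0.0370), where 19.6% of genes were called higher, so the call stood in a comparison with many. It was lost with limma voom (0.69, adjusted p = 0.234), with a replicate block (0.99, adjusted p = 0.145) and without a filter (1.28, adjusted p = 0.0591), and Trim63 was lost with RLE size factors (adjusted p = 0.0568) and without a filter (0.0544). Against Ta at 3 months the same Co libraries gave -0.68 ± 0.27 for Trim63 (adjusted p = 0.130), -0.93 ± 0.47 for Fbxo32 (adjusted p = 0.234) and 1.08 ± 0.44 for Cdkn1a (adjusted p = 0.141), which share the Co libraries with the comparison above.

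The calls of Co over P were close to the threshold. With 1 library left out at a time, 4 of 16 fits kept Trim63, 8 of 16 kept Fbxo32 and 6 of 16 kept Cdkn1a, with adjusted p-values up to 0.0949, 0.0743 and 0.0762. Co replicates 2, 6 and 8 each ended all 3 calls when left out. Co replicate 3 and every P library did so for Trim63, Co replicate 7 and P replicates 1, 2, 3 and 7 for Fbxo32, and Co replicate 5 and P replicates 2, 3, 4, 6, 7 and 8 for Cdkn1a. The 4 Co libraries lowest in Trim63 (replicates 2, 3, 6 and 8, at 79.9, 159, 143 and 109 CPM) were also those in which the 10 most abundant genes took the smallest share of counts, 15.5%, 22.5%, 17.6% and 18.0%, against 25.8% to 31.2% in the other 4 and 22.3% to 38.6% in Ta. Their TMM factors were 1.34 to 1.89. The part of this in the result was not tested.

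**Figure D5:**
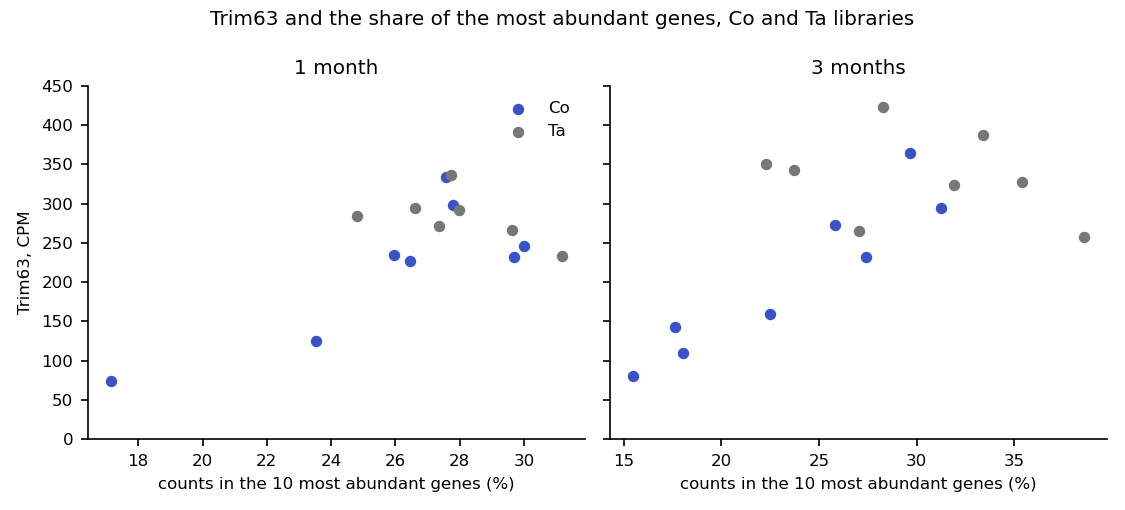
Trim63 CPM (y axis) against the percentage of counts in the 10 most abundant genes (x axis) in Co and Ta libraries at 1 month (left) and 3 months (right); each point is a library. Co libraries low in Trim63 have a low share, such as 79.9 CPM at 15.5% for replicate 2 at 3 months and 74.1 CPM at 17.1% for replicate 3 at 1 month.

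At 1 month Co muscle was higher in Cdkn1a than DU muscle. Co had 14.2, 26.1 and 83.7 CPM in the lowest, median and highest libraries, against 6.37, 10.1 and 15.4 CPM in DU. Of 8 Co libraries 7 lay above every DU library, and the log2 fold change was 1.68 ± 0.35 (adjusted p = 0.0287), where 5.27% of genes were called higher. The call held in 8 of 16 fits without 1 library, with adjusted p from 0.0101 to 0.0651. It was lost with a replicate block (1.44, adjusted p = 0.141), without Co replicate 1 or 3 or without DU replicate 1, 2, 4, 5, 6 or 7. Co replicates 1 and 3 had the most Cdkn1a, 83.7 and 51.5 CPM, and the least Trim63, 125 and 74.1 CPM. Against Ta at 1 month the Cdkn1a value in Co was 0.84 ± 0.39 (adjusted p = 0.341). That in DU was -0.81 ± 0.29 (adjusted p = 0.568), with all 8 DU libraries below the Ta median.

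Whether the change over time differed between a metal and Ta was tested directly as the change from 1 month in the metal less that in Ta. No gene passed, with 0 of 55 tests over 11 such differences by edgeR and 13 at an unadjusted p under 0.05. Among all genes tested, such an unadjusted p was met by 503 of 13749 (Co at 3 months) to 2392 of 12878 (Ni at 6 months). Over all genes 0.00696% of the tests of these differences passed after adjustment by edgeR. DESeq2 called 1 of the 55 and the model of all libraries 3, and their shares over all genes are not given here. The largest differences were those of DU from 1 to 12 months, at 4.27 ± 1.12 for Gadd45a (adjusted p = 0.172), 2.39 ± 0.59 for Cdkn1a (adjusted p = 0.155) and 1.62 ± 0.46 for Trim63 (adjusted p = 0.184). Without DU at 12 months replicates 5 and 6 they were 0.56 for Gadd45a, 1.18 for Cdkn1a and 0.59 for Trim63. For Fbxo32 the 11 differences ran from -0.61 to 0.35, none at an unadjusted p under 0.05 by edgeR.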

How the data were processed

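RNA of rat gastrocnemius was sequenced in 150 libraries, which the labels place in 19 groups of metal and month. The labels' protocols name 1000 ng of input RNA, a stranded total RNA kit and pairs of 100 base reads, with 10 samples in a lane, but give the lane or batch of none. What the authors deposited is a table of raw counts for each gene, whole numbers without normalization. HISAT2 2.0.5, featureCounts 1.5.0-p3 and the build Rnor_6.0 are named in the submitters' processing notes. Neither the annotation release nor the strand setting is given in the sources used here, and genes that overlap or lie antisense may have shared reads.

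Every test was fitted on just the groups it compares. After filterByExpr, 12034 to 13749 genes were tested with TMM factors and the robust quasi-likelihood test of edgeR 4.0.16 (limma 3.58.1, R 4.3.3), with Benjamini-Hochberg adjustment over all genes tested and a threshold of 0.05. The SE is the size of the log2 fold change over the square root of F. Log2 CPM used a prior count of 2. The test was checked on simulated data. Alternatives were RLE size factors, no filter, DESeq2 1.42.0, limma voom with sample weights, a replicate block, 1 model of all libraries, and fits without libraries that stand apart or without 1 library. The last, and the fit without DU at 12 months replicates 5 and 6, were chosen after seeing the data. The model of all libraries kept every library that stood apart. Its SE for Fbxo32 in Ni at 6 months over 1 month was 0.36, against 0.14 in the main fit.

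The 5 genes, the motifs and the gene lists were chosen with earlier results of these data known, and the 5 are named in every comparison. The reference table paired 0 of the Ensembl identifiers with a name, so 9 lists of related genes and 9 lists of cell type markers were not tested. Replicate numbers were not taken to pair libraries: every pair's deviations correlated over 0.1 in 1 of 50 comparisons (Co against Ta at 3 months), where the block called none of the 5 genes either. No pair of libraries within a group looked like a duplicate, the lowest chi-square per degree of freedom being 10.8 over 518 pairs.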

Additional observations from a re-analysis of the deposited data

Results flagged for a closer look

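Of 95 sets of 7 or 8 libraries (5 genes in 19 groups), 15 held a library far from the rest by Dixon's test on CPM. The test's rate of about 1 in 20 by chance holds for independent, normally distributed values. CPM was not put on a log scale and the 5 genes share libraries, so the 15 were not set against that rate. For Trim63 it was DU at 3 months replicate 2, at 0.412 CPM. For Fbxo32 they were DU at 12 months replicate 5 at 605 CPM, Co at 6 months replicate 1 at 52.7 CPM, and 2 Ta libraries, replicate 6 at 1 month at 224 CPM and replicate 1 at 3 months at 341 CPM.

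For Foxo1 they were Co at 1 month replicate 3 at 11.2 CPM, Co at 3 months replicate 2 at 12.3 CPM, P at 6 months replicate 4 at 16.8 CPM and Ta at 12 months replicate 4 at 20.9 CPM. For Cdkn1a they were P at 12 months replicate 2 at 100.2 CPM and DU at 3 months replicate 2 at 43.2 CPM. For Gadd45a they were Co at 1 month replicate 1 at 37.9 CPM, DU at 1 month replicate 2 at 34.4 CPM, DU at 3 months replicate 2 at 56.5 CPM and DU at 12 months replicate 6 at 2304 CPM. DU at 3 months replicate 2 appears for 3 of the 5 genes.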

How the results depend on the processing

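The number of calls among the 5 genes changed with the tool and with the libraries and terms of the fit. For metals against Ta (0 of 75) it was 3 with DESeq2, 5 with limma voom, 5 with all 150 libraries in 1 model, 1 without DU 3 month replicate 2 and Co 6 month replicate 1, and 0 with RLE size factors, without a filter, and without DU 12 month replicates 5 and 6. For comparisons between metals (4 of 105) it was 2 without a filter, 7 with DESeq2, 10 with voom, 15 with all libraries in 1 model and 9 without the first 2 libraries. For later months against 1 month (17 of 70) it was 17 with RLE size factors, 13 without a filter, 23 with DESeq2, 21 with voom and 13 with all libraries in 1 model. For metal by time (0 of 55) it was 1 with DESeq2 and 3 with all libraries in 1 model. With a replicate block the calls were 0 against Ta, 2 between metals, 8 over time and 0 for metal by time. The cause of these differences was not tested. The shares of all genes called in these other fits are not given here, so the counts were not read as results about the 5 genes.

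Over 27 results of single genes, 374 alternative values kept the direction, 260 on the same side of the threshold, 106 no longer past it and 8 newly past it. Leaving out 1 library in turn was run for 6 comparisons and not for the other 6 later-month comparisons with calls; of metals against Ta these included DU at 12 months, added after seeing the data, since the plan covered comparisons that called a gene and none did. Counting depth limits Foxo1 most, with 3 counts in its lowest library.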
